A study of Canis lupus familiaris with 11 samples.

Results

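Cadherins, catenins and repressors of cadherin transcription were followed in a dog kidney epithelial cell line after mechanical compression and after loss of lamin A/C. The set held 10 genes named by family and role: the cadherins CDH1, CDH2, CDH3, CDH6 and CDH16, the catenins CTNNA1, CTNNB1 and CTNND1, and the repressors SNAI1 and ZEB1. They were found by gene symbol, or by the protein match in the description where the symbol was a placeholder. The set was chosen with earlier results of these data known, so the choice was not blind to them. Of the 10 genes, 9 were found among 26178 rows of the table, and CTNND1 is not analysed here. All 9 passed the filter on low counts and stood among the 13560 genes tested, although CDH16 and ZEB1 lay near its lower edge.

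RNA was sequenced from MDCKII cells, an established line of polarised kidney epithelium (Madin-Darby canine kidney, type II), in 4 groups: wild type (WT) without compression (3 libraries), WT with compression (3), LMNA KO without compression (2) and LMNA KO with compression (3). LMNA encodes lamins A and C of the nuclear lamina, and the LMNA KO cells derive from the same line. Every group grew for 3 to 4 d to a confluent monolayer, and the compressed groups were then compressed laterally and given 2 h to recover before RNA was taken. These conditions are those of the sample titles and protocols, while the design text of the series names WT cells at other time points and after reseeding, with neither compression nor the knockout. The titles were followed, and this conflict bears on every comparison here. The labels do not say how compression was applied, whether controls were handled in the same way without it, or whether the LMNA KO cells are 1 clone, so compression cannot be told apart from its handling, nor the knockout from other differences between the lines. Separate cultures are not named for the replicates either, and p-values therefore measure only the spread between these libraries, which may be technical.

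Classical cadherins are calcium-dependent transmembrane proteins whose outer domains bind cadherins of the neighbouring cell. Their cytoplasmic tails bind beta-catenin (CTNNB1) or its relative plakoglobin (JUP), which bind alpha-catenin (CTNNA1), which in turn binds actin filaments. Free beta-catenin also enters the nucleus and acts with TCF/LEF factors in Wnt signalling. SNAI1 and ZEB1 are zinc-finger repressors that bind E-boxes of the CDH1 promoter, and they are best known for the epithelial-to-mesenchymal transition (EMT), in which E-cadherin is often replaced by N-cadherin.

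The 9 genes lie on 7 chromosomes of the CanFam3.1 build used by the count table. CDH1, encoding E-cadherin, spans chromosome 5 from 80759109 to 80930552 on the minus strand (ENSCAFG00000020305). CDH3, encoding P-cadherin, lies inside that span on the same strand, from 80864778 to 80913018 (ENSCAFG00000020303). CDH16, encoding kidney-specific cadherin, follows on chromosome 5 from 82398187 to 82411342 on the plus strand. The cadherin genes CDH5, CDH11 and CDH8 lie beyond it on the same chromosome and drew 7, 2 and 0 reads over all libraries together. CDH2, encoding N-cadherin, is on chromosome 7 (60736854 to 60949331, plus), and CDH6, encoding K-cadherin of the fetal kidney tubule, on chromosome 4 (75951481 to 75999226, minus). CTNNA1 is on chromosome 11 (26272900 to 26458713, plus) and CTNNB1 on chromosome 23 (10559728 to 10572927, plus). SNAI1 is on chromosome 24 (36498135 to 36503604, plus) and ZEB1 on chromosome 2 (15302325 to 15481483, minus). The span of CDH1 in this annotation, 171444 bases, holds the whole of CDH3, and no source used here says how reads in the shared interval were assigned, so the levels of these neighbours carry that uncertainty.

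Libraries held 10420214 to 17999623 counted reads. LMNA ran from 679 to 1209 CPM (read counts relative to library size, scaled by TMM) in the 6 WT libraries and from 25.5 to 51.8 CPM in the 5 LMNA KO libraries, which matched the labels. WT compressed 3 and LMNA KO compressed 2 lay at the far end of the first principal component, and WT control 1 differed from both other WT controls more than they did from each other. Results that rest on these libraries are given with and without them. All 11 epithelial and renal tubule markers were detected, KRT8 at 1025 to 1973 FPKM among them. Their summed level ran from 4617 to 8260 CPM in the WT controls and from 5804 to 6083 CPM in the compressed WT libraries. In the LMNA KO libraries it ran from 6923 to 7505 CPM in the controls and from 5958 to 7649 CPM after compression. Of 11 fibroblast and smooth muscle markers, 8 stayed under 1 CPM everywhere and 5 of these were at 0. The other members were the collagen COL5A2, at 1265 to 1699.7 CPM, MYH11, at 13.9 to 27.2 CPM, and PDGFRA, at 2.46 to 17.2 CPM, and the list summed to 1311 to 1730.1 CPM in WT controls, 1523 to 1654 in compressed WT, 1446 to 1508 in LMNA KO controls and 1288 to 1508 in compressed LMNA KO libraries. The endothelial and immune lists had 6 of 7 and 6 of 8 markers under 1 CPM in every library. The exceptions were KDR, CD68 and CD14, and none of them was called in any comparison. KDR drew 2 to 35 reads in the WT libraries and 0 in all 5 LMNA KO libraries. CD68 drew 0 to 23 reads and CD14 drew 12 to 138 over all 11 libraries. In bulk RNA, fewer cells of a type and less RNA per cell cannot be told apart.

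CTNNB1 and CTNNA1 stood at the top of the set in resting WT cells, followed by CDH1 and CDH6. On the scale of FPKM (fragments per kilobase of gene, scaled to library size), which allows genes to be compared per length, WT controls held 274 ± 39.8 FPKM of CTNNB1 and 270 ± 31.8 of CTNNA1 (SD, n = 3), so the order of these neighbours is within their spread. CDH1 followed at 134 ± 11.9 FPKM, CDH6 at 91.2 ± 4.15 and CDH3 at 24.3 ± 1.71 (SD, n = 3), and the 3 libraries did not overlap between any neighbours in that order. SNAI1 stood at 8.50 ± 1.81 FPKM and CDH2 at 4.24 ± 0.839 (SD, n = 3). CDH16 at 0.184 ± 0.0415 FPKM and ZEB1 at 0.137 ± 0.120 (SD, n = 3) were the lowest, and their values overlapped. Among the 13560 genes tested, CDH1 lay at percentile 94.96 of the FPKM level in WT controls, SNAI1 at percentile 44.2 and ZEB1 at percentile 1.02.

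E-cadherin and K-cadherin together made up most of the cadherin RNA of the set. CDH1 gave 50.9% to 57.9% of the summed FPKM of the 5 cadherins in 10 libraries and 43.9% in LMNA KO compressed 1. CDH6 gave 31.0% to 39.3% over all 11 libraries. CDH3 gave 9.45% to 9.70% in the WT controls and 6.52% to 7.03% in the compressed WT libraries, ranges that did not overlap. Its share in LMNA KO compressed 1 was 16.3%, the highest of any library, where the summed cadherin level was also the lowest at 150 FPKM against 230 to 288 elsewhere. CDH2 gave 1.10% to 2.00% in WT libraries and 0.232% to 0.325% in LMNA KO libraries.

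**Figure D1:**
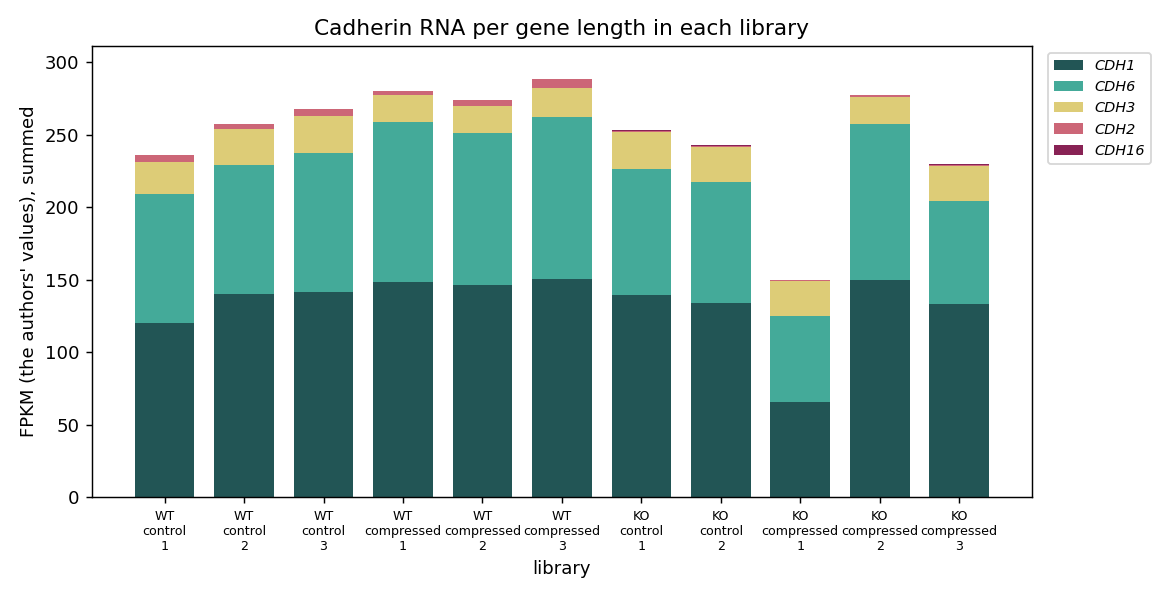
Stacked bars show the FPKM (the authors' values) of CDH1, CDH6, CDH3, CDH2 and CDH16 in each of the 11 libraries. CDH1 and CDH6 fill most of every bar, the CDH2 segment is thin in all 5 LMNA KO bars, and the bar of LMNA KO compressed 1 is the shortest, at 150 FPKM.

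In compressed WT cells SNAI1 was lower than in the WT controls, and no other gene of the set passed the test. SNAI1 was at 17.9, 11.5 and 15.2 CPM in the WT controls and at 3.92, 4.15 and 5.25 CPM in the compressed WT libraries (171 to 249 reads against 49 to 52). Every compressed library was below every control, and the groups did not overlap. The fall was 3.35-fold, a log2 fold change of -1.74 ± 0.28 (SE), with a 95% confidence interval of -2.35 to -1.14 and an edgeR adjusted p of 0.0410. By p-value SNAI1 ranked 5 of 13560 genes, with an unadjusted edgeR p of 2.57e-05; 3 of the 9 genes and 31.8% of all genes had one under 0.05. Over all genes edgeR called 6.25% in this comparison, 3.85% as higher and 2.4% as lower, beside the 1 of 9 here.

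The direction and size of the SNAI1 fall did not rest on 1 library, but its call did. With each library left out in turn the log2 fold change stayed between -1.90 and -1.59, while the edgeR adjusted p ran from 0.00468 to 0.184. The call was lost without WT control 2 (adjusted p 0.0652) or 3 (0.118), without compressed WT 1 (0.132), 2 (0.0501) or 3 (0.184), and without LMNA KO control 1 (0.0760) or 2 (0.0765). Unadjusted edgeR p-values in the same refits reached 0.000346 at most. Without WT compressed 3 and LMNA KO compressed 2 together the change was -1.88 with an edgeR adjusted p of 0.0146, and without WT control 1 as well it was -1.72 with an edgeR adjusted p of 0.00225.

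CDH1, the best-known target of SNAI1, did not pass the test. Its levels were 394, 455 and 465 CPM in the WT controls and 492, 485 and 496 CPM after compression. The compressed libraries were all higher and did not overlap with the controls, but the log2 fold change of 0.16 ± 0.23 (SE) had an edgeR adjusted p of 0.638 and a 95% confidence interval of -0.33 to 0.66. Both a higher and a lower level lie within that interval.

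P-cadherin and K-cadherin had values on opposite sides of their controls in compressed WT cells, and neither passed the test. CDH3 was at 94.4, 105 and 108 CPM in the controls and at 78.0, 80.4 and 86.2 CPM after compression, a log2 fold change of -0.33 ± 0.14 with an edgeR adjusted p of 0.137. CDH6 was at 224, 222 and 243 CPM in the controls and at 281, 267 and 283 CPM after compression, a log2 fold change of 0.27 ± 0.19 with an edgeR adjusted p of 0.327. For both genes the groups did not overlap. CDH3 passed the edgeR test only when WT compressed 3, LMNA KO compressed 2 and WT control 1 were all left out, at -0.43 and an adjusted p of 0.0234.

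CDH16 and CDH2 were too low or too variable in WT cells for a firm reading. CDH16 drew 14, 22 and 16 reads in the controls and 4, 9 and 0 after compression, where the library at 0 allows a level of up to 0.303 CPM by counting error alone. Its log2 fold change was -1.66 ± 0.73 with an edgeR adjusted p of 0.138. CDH2 was at 12.8, 9.06 and 13.6 CPM in the controls and at 8.69, 11.5 and 16.1 CPM after compression, groups that overlapped throughout. Of the 9 genes, 5 had groups that did not overlap (SNAI1, CDH3 and CDH16 lower, CDH1 and CDH6 higher), against 42% of all genes tested (21.2% higher and 20.8% lower), so that count is near the background.

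Neither catenin passed the test in compressed WT cells. CTNNA1 was at 1007, 796 and 865 CPM in the controls and at 837, 835 and 806 CPM after compression, and CTNNB1 at 1116, 853 and 897 CPM against 916, 909 and 989 CPM. Both pairs of groups overlapped, and WT control 1 was above every compressed library for both genes. The 95% confidence intervals of the log2 fold changes ran from -0.37 to 0.16 for CTNNA1 and from -0.31 to 0.26 for CTNNB1. ZEB1 drew 10, 0 and 11 reads in the controls and 1, 6 and 13 after compression, too few for a difference to be detectable at this depth.

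**Figure D2:**
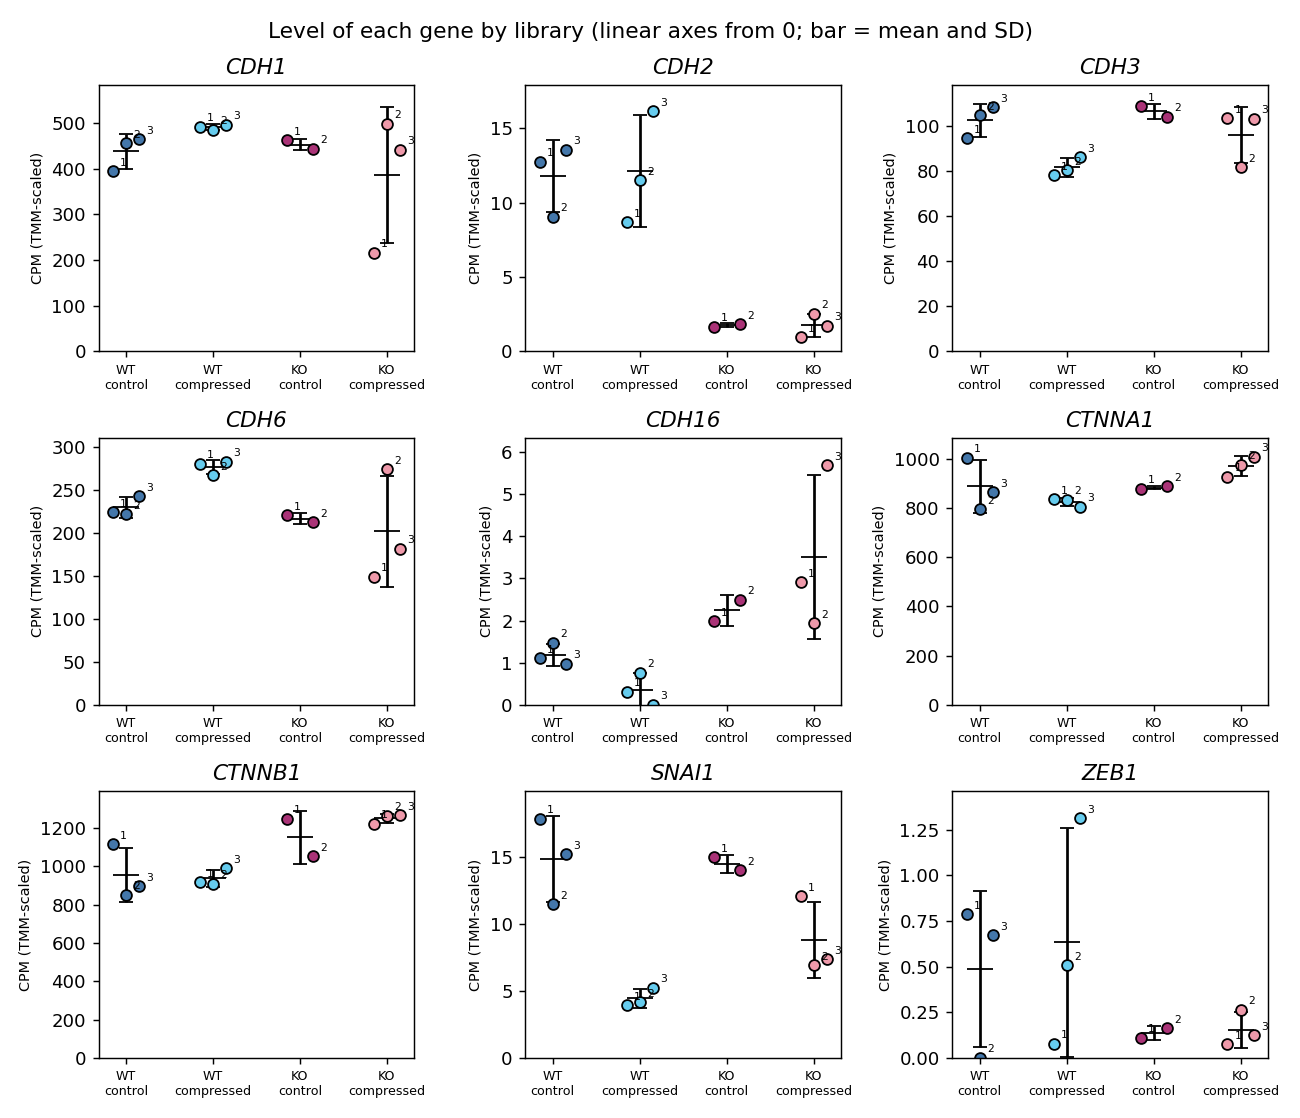
Each panel shows one gene, with 1 point per library at its TMM-scaled CPM on a linear axis from 0, replicate numbers beside the points, and bars for the group mean and SD. SNAI1 is low in the 3 compressed WT libraries, at 3.92 to 5.25 CPM, and CDH2 is low in all 5 LMNA KO libraries, at 0.971 to 2.54 CPM.

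In LMNA KO cells no gene of the set, and none of the 13560 tested, passed the edgeR test after compression (0%), while 828 genes (6.11%) had an unadjusted p under 0.05. DESeq2 called 1 gene in the same comparison and 0 of the set. SNAI1 was at 14.98 and 14.02 CPM in the LMNA KO controls and at 12.1, 6.93 and 7.36 CPM after compression. All 3 compressed libraries were below both controls, with LMNA KO compressed 1 closest to them. The log2 fold change was -0.72 ± 0.29 (SE), with a 95% confidence interval of -1.35 to -0.09, an unadjusted edgeR p of 0.0280 and an edgeR adjusted p of 0.773. Without LMNA KO compressed 1 it was -1.02, and without WT compressed 3 and LMNA KO compressed 2 it was -0.56. SNAI1 was the only gene of the set with an unadjusted edgeR p under 0.05 here.

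One compressed LMNA KO library stood apart for E-cadherin. CDH1 was at 461 and 444 CPM in the LMNA KO controls and at 216, 498 and 441 CPM after compression. LMNA KO compressed 1, at 216 CPM, was the lowest of all 11 libraries, and the other compressed libraries lay just above and just below the controls. The log2 fold change of -0.23 ± 0.25 (edgeR adjusted p 0.833) became 0.05 without that library. CDH6 was low in the same library, at 149 CPM against 221 and 212 in the controls and 275 and 182 in the other compressed libraries, and its log2 fold change turned from -0.10 to 0.07 without it. CDH3 in that library, at 103 CPM, was within the range of the LMNA KO libraries, 81.7 to 109 CPM.

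The remaining genes showed no difference past the test in compressed LMNA KO cells. CTNNA1 was at 879.8 and 889.9 CPM in the controls and at 928, 977 and 1010.3 CPM after compression, groups that did not overlap, with a log2 fold change of 0.14 ± 0.14. CTNNB1 was at 1249.9 and 1054 CPM in the controls and at 1224, 1265 and 1268 CPM after compression. CDH2 drew 30 and 34 reads in the controls, and its group means were equal at 1.75 CPM. Groups did not overlap for 3 of the 9 genes (CTNNA1 higher, CDH3 and SNAI1 lower), against 27.6% of all genes tested (13.5% higher and 14% lower).

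The test of whether compression acted differently in the 2 genotypes called none of the 13560 genes in edgeR (0%), while 650 (4.79%) had an unadjusted p under 0.05. DESeq2 called 0 genes as well. For SNAI1 the change in LMNA KO cells exceeded that in WT cells by 1.02 ± 0.41 on the log2 scale, with an unadjusted edgeR p of 0.0252 and an edgeR adjusted p of 0.939. A difference of SNAI1 response between genotypes was therefore not established by this test, although its 95% confidence interval ran from 0.15 to 1.90. CDH16 had an interaction of 2.32 ± 1.00 with an unadjusted edgeR p of 0.0357 and an edgeR adjusted p of 0.939.

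**Figure D3:**
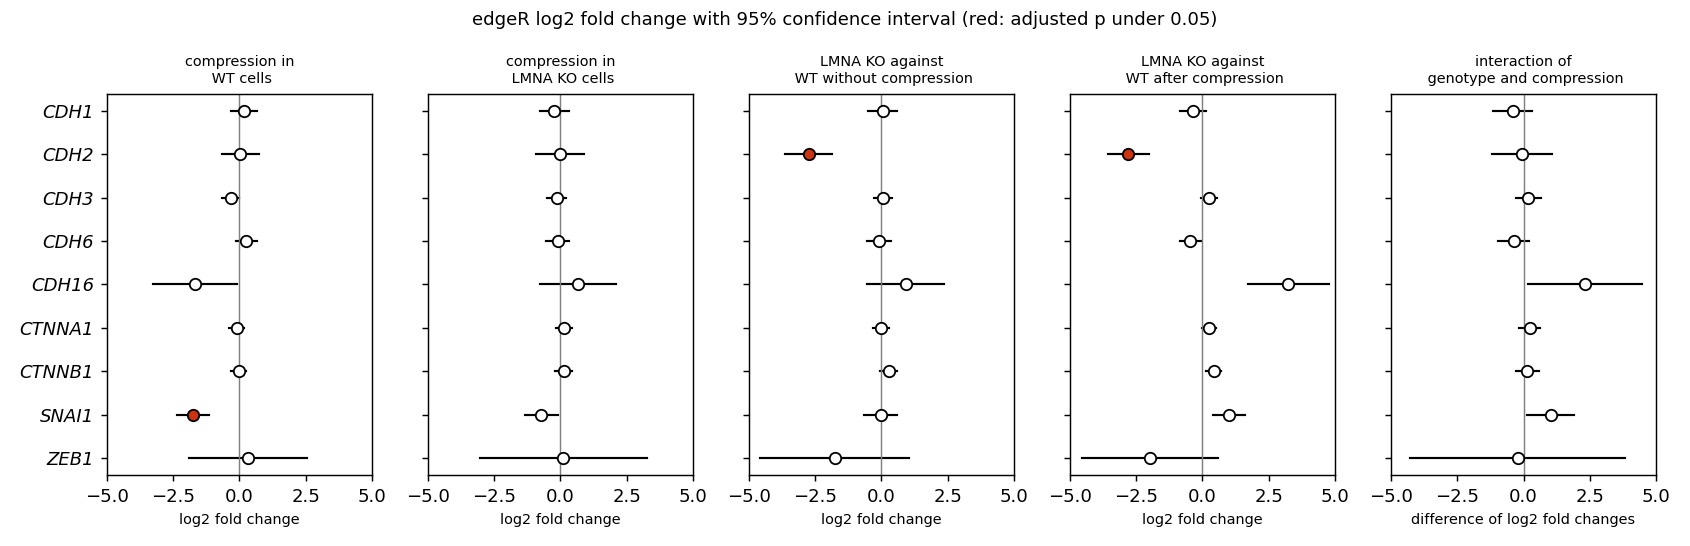
Each panel shows the edgeR log2 fold change and its 95% confidence interval for the 9 genes in 1 comparison, with filled red points where the adjusted p was under 0.05. SNAI1 after compression of WT cells, at -1.74, and CDH2 in both comparisons of LMNA KO with WT, at -2.75 and -2.80, are the 3 filled points.

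N-cadherin RNA was lower in LMNA KO cells than in WT cells, with and without compression. CDH2 was at 12.8, 9.06 and 13.6 CPM in the WT controls and at 1.65 and 1.85 CPM in the LMNA KO controls. The LMNA KO values were below every WT value, and CDH2 was lower by 6.71-fold, a log2 fold change of -2.75 ± 0.42 (SE) with a 95% confidence interval of -3.64 to -1.85 and an edgeR adjusted p of 0.0127. It was the only gene of the set called, and edgeR called 0.339% of all genes in this comparison, 0.133% as higher and 0.206% as lower. It was also the only one with an unadjusted edgeR p under 0.05, a level that 7.79% of all genes reached. The call was lost without WT control 3 (adjusted p 0.0570), LMNA KO control 1 (0.254) or LMNA KO control 2 (0.225), while the log2 fold change stayed between -2.91 and -2.63 with each library left out.

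After compression CDH2 was again lower in LMNA KO cells, and the interaction for CDH2 was -0.05 ± 0.53 on the log2 scale. CDH2 was at 8.69, 11.5 and 16.1 CPM in the compressed WT libraries and at 0.971, 2.54 and 1.73 CPM in the compressed LMNA KO libraries. The groups did not overlap, and CDH2 was lower by 6.94-fold in the LMNA KO libraries, a log2 fold change of -2.80 ± 0.36 with a 95% confidence interval of -3.58 to -2.01 and an edgeR adjusted p of 0.00231. Over all genes edgeR called 0.789% in this comparison, 0.509% as higher and 0.28% as lower. The call held with each library left out in turn (log2 fold change of -3.14 to -2.51), without the 2 libraries that stood apart (-2.86) and without 3 of them (-2.87). The WT libraries of the compression comparison are also those of these comparisons, so these results are not independent of each other.

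E-cadherin did not pass the test between the genotypes. In LMNA KO against WT controls CDH1 had a log2 fold change of 0.05 ± 0.25, with an edgeR adjusted p of 0.985 and a 95% confidence interval of -0.50 to 0.60. After compression it was -0.35 ± 0.23 with an edgeR adjusted p of 0.620, and it ran from -0.58 to -0.06 with each library left out. LMNA KO compressed 1 was at 216 CPM there, against 498 and 441 CPM in the other compressed LMNA KO libraries. The ratio of CDH1 to CDH2 FPKM was 32.7 ± 8.80 in WT controls (SD, n = 3) and 221 ± 23.4 in LMNA KO controls (SD, n = 2).

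Kidney-specific cadherin lay higher in LMNA KO cells after compression without passing the test. CDH16 was at 0.308, 0.762 and 0 CPM in the compressed WT libraries and at 2.91, 1.93 and 5.69 CPM in the compressed LMNA KO libraries (22 to 92 reads). The groups did not overlap, with a log2 fold change of 3.24 ± 0.71 and an edgeR adjusted p of 0.0579. Without LMNA KO compressed 2 the edgeR adjusted p was 0.0202, and without both libraries that stood apart it was 0.0271 at a log2 fold change of 3.02. With each library left out in turn CDH16 passed in 1 of 11 refits. The log2 fold change then ran from 2.69 to 4.32 and the edgeR adjusted p reached 0.262. Among controls the LMNA KO libraries, at 1.98 and 2.50 CPM, were also above the WT libraries, at 1.10, 1.48 and 0.977 CPM, with a log2 fold change of 0.91 ± 0.67 and an edgeR adjusted p of 0.813.

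Beta-catenin, SNAI1 and K-cadherin were the other genes with unadjusted edgeR p-values under 0.05 in compressed LMNA KO against compressed WT cells, which makes 5 of 9 with CDH2 and CDH16 against 11.3% of all genes. CTNNB1 was 1.33-fold higher in the LMNA KO libraries (log2 fold change 0.42 ± 0.13, edgeR adjusted p 0.213), where all 3 values, 1224 to 1268 CPM, exceeded all 3 WT values, 909 to 989 CPM. SNAI1 was 1.99-fold higher (0.99 ± 0.28, edgeR adjusted p 0.158), again without overlap. CDH6 had a log2 fold change of -0.46 ± 0.19 and an edgeR adjusted p of 0.358. Without LMNA KO compressed 2, in which CDH6 was high at 275 CPM, that change was -0.75 with an edgeR adjusted p of 0.0153. This was the 1 call for CDH6 in 11 refits with a library left out. Over these refits the change ran from -0.75 to -0.28, with edgeR adjusted p-values up to 0.677. Groups did not overlap for 5 of the 9 genes after compression (CDH16, CTNNA1, CTNNB1 and SNAI1 higher, CDH2 lower), against 15.7% of all genes tested (7.92% higher and 7.82% lower), and for 3 of the 9 among controls (CDH16 higher, CDH2 and CDH6 lower), against 31.9% (16.9% higher and 15% lower). The ratio of CTNNB1 to CTNNA1 FPKM was 1.015 ± 0.0337 in WT controls (SD, n = 3) and 1.23 ± 0.158 in LMNA KO controls (SD, n = 2).

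SNAI1 and ZEB1 did not differ past the test between the genotypes at rest. SNAI1 was at 14.98 and 14.02 CPM in the LMNA KO controls, inside the WT range of 11.5 to 17.9 CPM, and its 95% confidence interval for the log2 fold change was -0.66 to 0.60. ZEB1 drew 5 reads over both LMNA KO controls together and 21 over the WT controls, with 6 and 20 after compression. Its edgeR adjusted p-values were 0.815 and 0.582, and a level this low does not let a difference be detected.

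**Figure D4:**
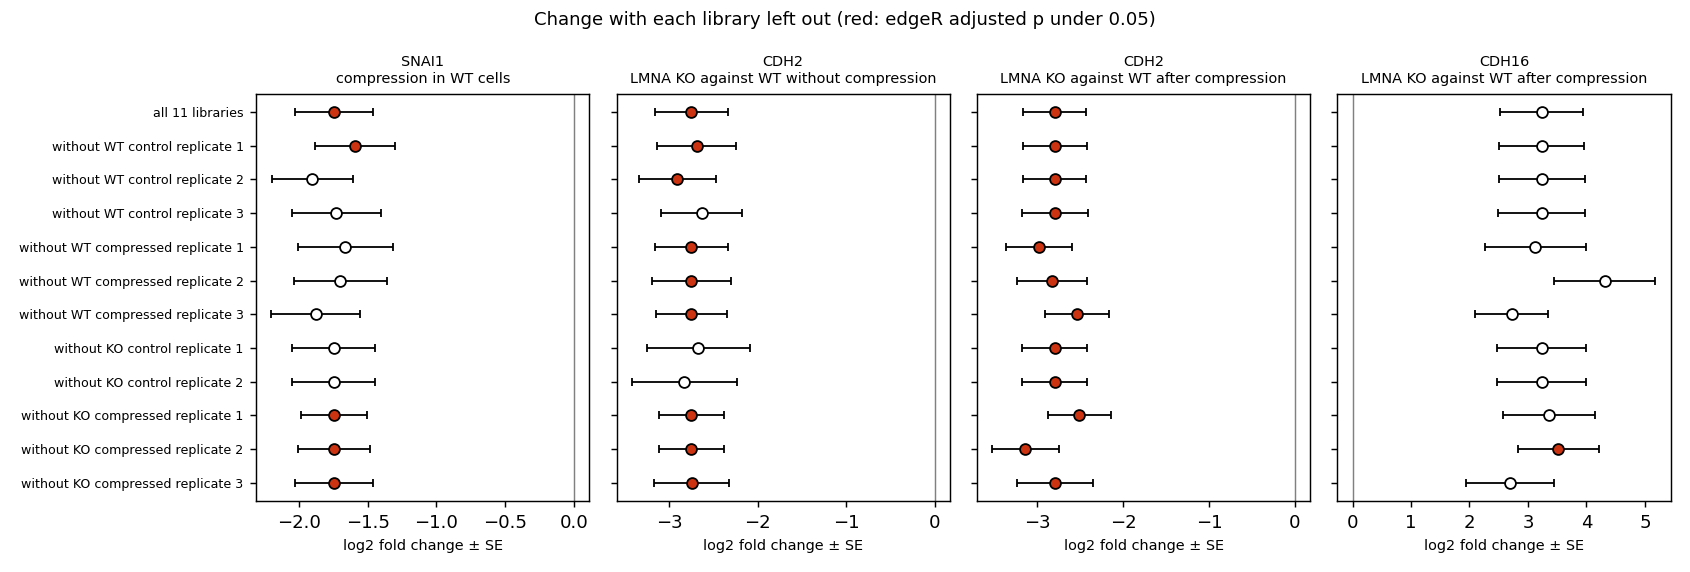
Points show the edgeR log2 fold change and SE of SNAI1, CDH2 and CDH16 with all 11 libraries and with each left out in turn, filled red where the adjusted p was under 0.05. The size of each change stays on the same side of 0 in every refit, while the fill comes and goes for SNAI1 in WT cells and holds in every refit for CDH2 after compression.

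Genes that work with the cadherins were read from lists of pathway partners. Of 97 tested genes on the 9 lists, 1 was called higher and 8 lower in compressed WT cells, which is 9.28% against 6.25% of all genes tested. SNAI2, the close relative of SNAI1 and also a repressor of CDH1, was the 1 that rose, from 28.4, 39.4 and 35.9 CPM to 51.2, 52.3 and 63.8 CPM (log2 fold change 0.69 ± 0.18, edgeR adjusted p 0.0471). Its compressed libraries were all above its controls, opposite in direction to SNAI1. The ratio of SNAI2 to SNAI1 FPKM accordingly went from 2.00 ± 0.752 to 10.2 ± 0.367 in WT cells (SD, n = 3 each). In LMNA KO cells it was 2.71 ± 0.177 at rest (SD, n = 2) and 6.02 ± 2.41 after compression (SD, n = 3). Among the other EMT factors, TWIST2 and ZEB2 did not exceed 0.47 CPM in any library.

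Among the catenin relatives and cadherin-actin linkers, 2 of 16 tested genes were called lower and none higher in compressed WT cells. Over all genes tested 6.25% were called, 2.4% as lower. ZYX (zyxin), a LIM protein of actin-anchored adhesions, changed by -1.02 ± 0.27 (edgeR adjusted p 0.0456). AJUBA, a LIM protein that binds alpha-catenin and also acts as a SNAI1 corepressor, changed by -0.71 ± 0.20 (edgeR adjusted p 0.0498). The median log2 fold change of the list was -0.23, against -0.02 over all genes tested. It lay within the range of the other partner lists. Their medians ran from -0.37 (epithelial transcription and splicing factors) to 0.21 (SNAI1 regulators and corepressors). JUP, which takes the place of beta-catenin on cadherin tails, was at 538, 677 and 624 CPM in the WT controls and at 487, 486 and 347 CPM after compression, with a log2 fold change of -0.48 ± 0.17 and an edgeR adjusted p of 0.0867. JUP was picked for mention after its values were seen.

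Each of the other partner lists held at most 2 genes past the test in compressed WT cells, where 6.25% of all genes tested were called. PVR, a nectin-like adhesion receptor, was at 45.8 to 67.0 CPM in the controls and 16.8 to 29.7 CPM after compression (-1.38 ± 0.29, edgeR adjusted p 0.0410), the 1 of 8 tested nectin and afadin partners called. Of 16 tested SNAI1 regulators and corepressors, FBXL14, a ubiquitin ligase subunit that targets SNAI1 protein, changed by -0.83 ± 0.22 (edgeR adjusted p 0.0471). LOXL2, a lysyl oxidase reported to stabilise SNAI1 protein, changed by -1.15 ± 0.32 (edgeR adjusted p 0.0498). The size of the LOXL2 change leaned on WT control 1, at 72.2 CPM, while WT control 2 held 36.6 CPM and WT control 3 held 35.3. All compressed WT libraries were lower, at 19.3 to 24.2 CPM. With each library left out in turn the LOXL2 change ran from -1.33 to -0.74. Of 12 destruction complex and TCF genes, PYGO2, a nuclear cofactor of beta-catenin, changed by -1.04 ± 0.23 (edgeR adjusted p 0.0410) and the factor TCF7 by -0.58 ± 0.16 (edgeR adjusted p 0.0471).

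The epithelial splicing factor ESRP2 was the 1 gene called of 13 epithelial transcription and splicing factors, beside 6.25% of all genes tested. It changed by -0.93 ± 0.23 (edgeR adjusted p 0.0435). None of 16 genes of cadherin shedding, ubiquitination and trafficking was called, nor any of 10 tested mesenchymal genes, whose medians were -0.08 and -0.28. VIM (vimentin), a mesenchymal filament protein, was abundant throughout at 4289 to 7864 CPM. Of 18 mesenchymal genes listed, 10 passed the filter on low counts. The rest, SPARC, MMP2, MMP9, COL1A1, COL1A2, COL3A1, ACTA2 and TAGLN, stayed under 1 CPM in every library. With each library left out in turn, SNAI2, ZYX, AJUBA, PVR, FBXL14, LOXL2, PYGO2, TCF7 and ESRP2 kept their sign in every refit and each passed the edgeR test in 2 to 4 of 11.

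Epithelial line markers moved in both directions in the same WT comparison. Of 11 markers, the renal tubule factors PAX8 (-1.11 ± 0.24) and PAX2 (-0.98 ± 0.23) were lower, with edgeR adjusted p-values of 0.0410 and 0.0415. LHX1 (1.32 ± 0.34) and EPCAM (0.60 ± 0.15) were higher, with edgeR adjusted p-values of 0.0448 in each case. That makes 4 of 11 markers called, beside 6.25% of all genes tested. With each library left out in turn all 4 kept their sign, and each passed the edgeR test in 3 or 4 of 11 refits. The part of these shifts in the SNAI1 result was not tested.

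In LMNA KO cells after compression no gene of these lists was called (0 of 97), nor in the interaction. Between LMNA KO and WT controls 2 of 97 were called, both lower, which is 2.06% against 0.339% of all genes tested. CTNND2 (delta-catenin), a relative of CTNND1 found mainly in neurons, drew 54, 35 and 35 reads in the WT controls and 0 and 1 in the LMNA KO controls (edgeR adjusted p 0.0239). LOXL2 was at 72.2, 36.6 and 35.3 CPM in the WT controls and at 14.9 and 9.13 CPM in the LMNA KO controls (-1.99 ± 0.38, edgeR adjusted p 0.0439). Left out in turn, 1 library ended the call in 6 of 11 refits for CTNND2 and in 9 of 11 for LOXL2.

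After compression, 2 of 97 list genes were called between the genotypes, 1 higher and 1 lower, which is 2.06% against 0.789% of all genes tested. CTNND2 drew 31, 18 and 40 reads in the compressed WT libraries and 0 in all 3 compressed LMNA KO libraries, so it was at least 35.0-fold lower against a floor of 3 reads over the group (edgeR adjusted p 0.00458). TCF7, a transcription partner of beta-catenin, was at 38.4 to 49.4 CPM in compressed WT and 75.9 to 91.8 CPM in compressed LMNA KO libraries (0.87 ± 0.16, edgeR adjusted p 0.0183). With each library left out in turn, CTNND2 passed in all 11 refits and TCF7 in 7 of 11. PVRL2 (nectin-2), a cell adhesion molecule linked to actin through afadin, was at 0.91 ± 0.20 with an edgeR adjusted p of 0.0579. Of the 11 epithelial line markers, LHX1 was the 1 called in this comparison. It drew 83, 73 and 68 reads in the compressed WT libraries and 26, 22 and 18 in the compressed LMNA KO libraries. Its log2 fold change was -1.97 with an edgeR adjusted p of 0.0179, and it passed in 6 of 11 refits with 1 library left out.

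**Figure D5:**
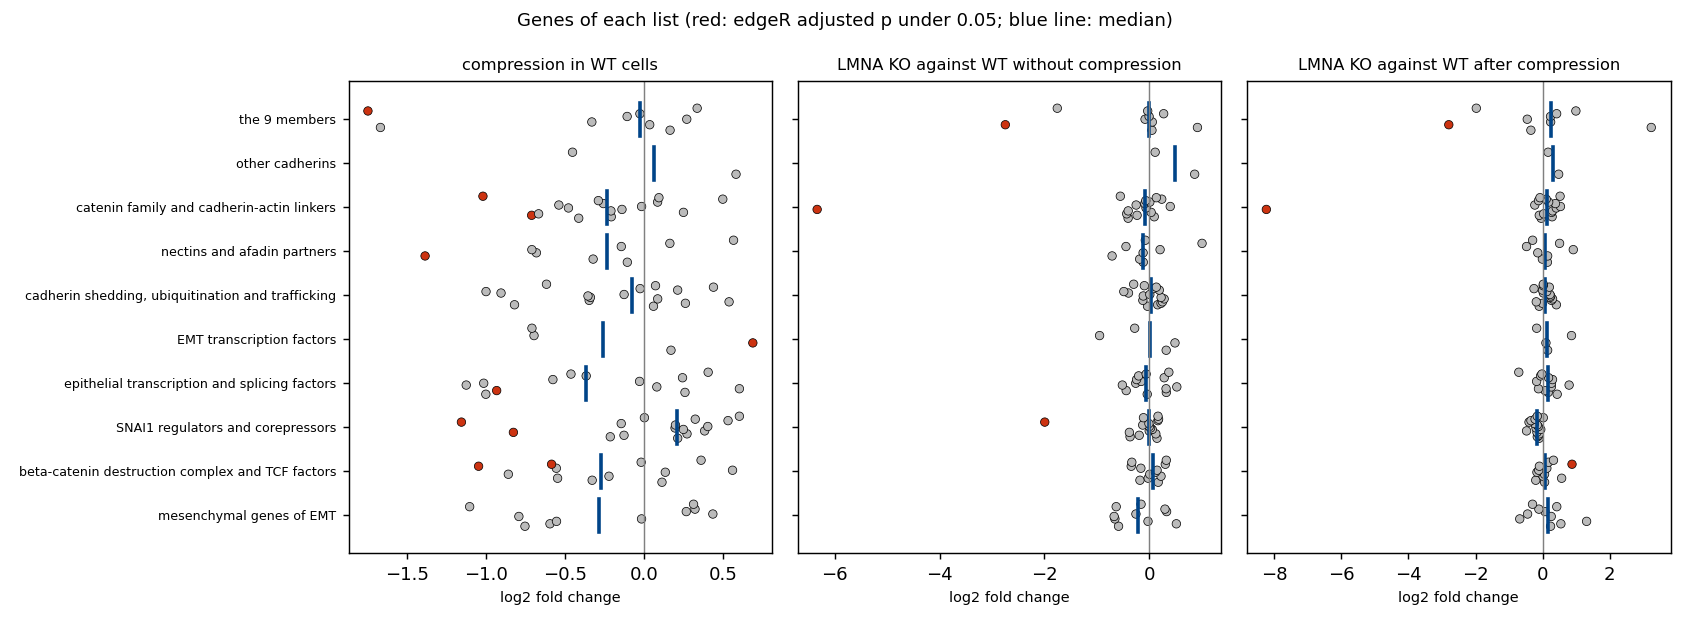
Each point is the edgeR log2 fold change of one gene on a list, by comparison, with red points where the adjusted p was under 0.05 and a blue line at each list's median. No list plotted holds more than 2 red points in a panel, and in the panel for compression of WT cells the SNAI1 point at -1.74 is the lowest of the lists plotted.

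Of 18 further cadherin genes looked for, 2 passed the filter on low counts. CDH17, the liver-intestine cadherin, was at 34.3, 62.6 and 59.1 CPM in the WT controls and at 104 and 84.7 CPM in the LMNA KO controls (0.86 ± 0.23, edgeR adjusted p 0.252). In WT cells it was at 74.9, 76.0 and 82.7 CPM after compression (0.58 ± 0.21, edgeR adjusted p 0.0917). CDH24, the other one, overlapped between groups in the WT comparison. On the FPKM scale CDH17 ran from 7.56 to 26.7 and CDH2 from 0.348 to 5.77 over all libraries.

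The genes whose levels ran most closely with each member were taken by Pearson correlation of log2(CPM + 0.5) over the 11 libraries, which share depth, scaling and the 4 groups. CDH1 was closest to SLC35B4 (r = 0.98), TMED7 (0.98) and RLIM (0.98), CDH6 to SEPSECS, ARHGAP19 and DYNC1LI2 (0.96, 0.96 and 0.95), and CDH3 to AGPAT2, SEC14L2 and CTSA (0.94, 0.94 and 0.93). CDH2 was closest to CACHD1, WDR3 and ENOPH1 (0.98, 0.97 and 0.97). SNAI1 was closest to BSCL2, MARK4 and TNS4 (0.95, 0.93 and 0.93). CTNNB1 was closest to PLA2G7, PON2 and CP (0.96, 0.95 and 0.95), and CTNNA1 to UNC13B, ABLIM1 and LPIN1 (0.94, 0.92 and 0.92). CDH16 was closest to PAPSS2 (0.96) and ZEB1 to EXOSC10 (0.93), from few reads in both cases.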

How the data were processed

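RNA was measured in 11 libraries of MDCKII cells, and the titles of the samples gave the 4 groups. CASAVA, FastQC, HISAT2 2.0.5 and the build CanFam3.1 are named per the submitters' processing notes. No source used here names the gene counter, annotation release or filters, or whether library preparation kept strand, so overlapping and antisense genes cannot be told apart. The gene counts deposited by the authors are whole numbers without normalization, and the deposited FPKM values, also by the authors, which divide counts by gene length and library size. Depth was 10420214 to 17999623 counts per library, and intervals and floors for low counts cover counting error only.

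Counts were filtered with filterByExpr and scaled by TMM, and 13560 genes were fitted with the edgeR 4.0.16 quasi-likelihood test (R 4.3.3) over all 4 groups (7 residual degrees of freedom), with Benjamini-Hochberg adjustment over all genes and a threshold of 0.05. The script was tested on simulated data. Compression was tested in each genotype, LMNA KO against WT with and without compression, and the interaction. Members and lists were chosen with earlier results of these data known. The text names every member and every called gene of the lists, while genes not called are named for some lists only. It also names the 3 genes most correlated with each member at a mean of at least 2 CPM. For CDH16 and ZEB1 only the first of these is named. Alternatives were DESeq2 1.42.0, limma 3.58.1 on log2(FPKM + 1) or log2(FPKM + 0.1), other scalings and filters, a robust fit, 2 groups alone, a replicate block and leaving out libraries. No 2 replicates agreed within sampling noise, the smallest chi-square per gene being 6.09. No sequences are printed.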

Additional observations from a re-analysis of the deposited data

How the results depend on the processing

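The replicate numbers did not pair the samples: of 15 same-numbered pairs of libraries, 1 correlated above 0.1 (r from -0.35 to 0.20), and 1 library was closest to its own number. With a replicate block edgeR called 0 genes for compression of WT cells, 15 for LMNA KO against WT controls and 53 after compression, and the set's calls were 0, 0 and 1. SNAI1 in WT cells was then at -1.72 (adjusted p 0.111) and CDH2 between controls at -2.64 (adjusted p 0.0511).

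Counts of genes called moved with the processing far more than the fold changes did. For compression of WT cells, against 848 genes, DESeq2 called 2558, no filter on low counts 1754, the 2 groups alone 2069, limma on log2(FPKM + 0.1) 1 and limma on log2(FPKM + 1) 0, and leaving out each library gave 0 to 3066. For LMNA KO against WT controls, against 46, the same settings gave 127, 90, 33, 8 and 16, and leaving out each library 6 to 106. After compression, against 107, they gave 371, 201, 64, 50 and 59, and leaving out each library 39 to 349. In LMNA KO cells, against 0, DESeq2 and limma on log2(FPKM + 1) each called 1, and the interaction gave 0 to 1 with each library left out, the 1 being without WT control 1. The set's own count for WT compression, 1, became 0 in both limma fits and 0 to 1 with each library left out. For LMNA KO against WT controls it became 0 in limma on log2(FPKM + 0.1) and 0 to 1 with each library left out. After compression it was 3 in DESeq2, 2 with no filter, and 1 to 3 with each library left out.

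2 exclusions were chosen after seeing the data. Without WT compressed 3 and LMNA KO compressed 2 edgeR called 111 genes between controls and 3 of the set after compression. Without WT control 1 as well it called 3497 genes for WT compression, 13 for LMNA KO compression, 802 and 723 between the genotypes and 362 for the interaction, with 2 of the set in compressed WT cells and 4 in LMNA KO against WT after compression.

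Members near 0 that were not called changed sign. For WT compression CDH2 was at -0.016 with library size alone, -0.0081 with the block, -0.22 without the 2 libraries and -0.16 without 3, and -0.22 to 0.23 with each library left out. CTNNA1 was at 0.010 and CTNNB1 at 0.062 without 3 libraries, CTNNB1 ran from -0.10 to 0.10 and ZEB1 from -0.25 to 0.89 with each left out. For LMNA KO compression leaving out each library gave -0.46 to 0.053 for CDH1, -0.35 to 0.27 for CDH2, -0.39 to 0.073 for CDH6 and -0.41 to 0.42 for ZEB1, which was at -0.28 with the block. Between controls CDH1 ran from -0.024 to 0.093, CDH3 from -0.0014 to 0.096, CTNNA1 from -0.082 to 0.091 and SNAI1 from -0.19 to 0.12. Without 3 libraries these were at -0.022, -0.00018, 0.092 and 0.12, CTNNA1 was at 0.0038 with library size alone, and SNAI1 was at 0.0017 with the block. For the interaction CDH2 ran from -0.39 to 0.24 and ZEB1 from -0.76 to 0.36. The causes were not tested. The limma filter left out CDH16 and ZEB1 and so gave them no value, and the interaction had no fit of 2 groups alone. CDH16, ZEB1 and CTNND2 rest on few reads, and at this depth small differences in them were not detectable.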
